A study of Mus musculus with 32 samples.

Results

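The subunits of the mitochondrial respiratory chain that are encoded in the nucleus were followed in mouse cochlea. Members were the genes whose symbol begins with Nduf followed by a, b, c, s or v and a number, with Sdha to Sdhd, with Uqcr, with Cox4 to Cox8 or with Atp5, leaving out Ndufa4l2 and the Ndufaf assembly factors. This gave 83 of the 39399 genes listed for the Prestin strain and of the 43947 listed for the Sox2 strain. In GENCODE M21, 82 of them are protein coding and 1, Cox6c2, is a processed pseudogene of Cox6c. They fall into complex I (35 genes), complex II (4), complex III (8), complex IV (19) and complex V, the ATP synthase (17).

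The mice were 10 weeks old, came from strains that the design text names with CBA and were heterozygous for RiboTagHA, an allele whose ribosomal protein Rpl22 carries an HA tag wherever Cre is active. Cre came from PrestinCreERT2 (outer hair cells) in 1 strain and from Sox2CreERT2 (supporting cells) in the other, and all controls carried the same alleles. Mice were exposed to noise at 105 dB SPL for 2 h and taken 6 h or 24 h later, or were not exposed. Of each cochlear homogenate, HA immunoprecipitates (IP) were sequenced beside an aliquot of the whole homogenate (input), giving 32 libraries in 12 groups. The 3 outer hair cell IP groups held 3 libraries each, as did the 3 Prestin inputs. The supporting cell IP held 2 control libraries, 2 at 6 h and 3 at 24 h, and so did the Sox2 input. The labels speak of biological triplicates without saying whether a library is 1 animal or a pool, so p-values measure the spread between these libraries. Values were TPM (a share of each library's reads, scaled for gene length), so read depth is unknown, and fold changes are log2(TPM + 1) differences tested with limma and Benjamini-Hochberg adjustment over all genes tested.

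Complex I takes electrons from NADH and complex II from succinate. Complexes III and IV pass them on to oxygen while complexes I, III and IV pump protons, and complex V uses the proton gradient to make ATP. Most subunits are made on cytosolic ribosomes and imported, while a few hydrophobic core subunits are encoded in mitochondrial DNA. In the cochlea the stria vascularis, which maintains the ionic gradients that hair cells need, is known for its dense mitochondria.

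Markers of the tagged cells were higher in both pull-downs, and so were markers of some cells that were not the target. Outer hair cell markers summed to 514.5 to 2229 TPM in the outer hair cell IP and 81.6 to 113 TPM in its input, and all 10 were higher. Of 12 supporting cell markers 11 were higher in the supporting cell IP, with a median log2 difference of 2.53. All 10 Schwann and satellite glia markers were also higher there, summing to 2897 to 8926 TPM in the IP and 865 to 1303 TPM in the input. Supporting cell markers summed to 2925 to 4538 TPM in Prestin pull-downs and 1675 to 2956 TPM in their inputs. Higher calls stand beside 68.5% of all genes for outer hair cells and 55.2% for supporting cells. By these sums, marker RNA of cells other than the labelled type was present in both pull-downs. Genes listed above 0 numbered 15929 to 21239, with the 4 Sox2 libraries at 6 h the lowest (15929 to 16966). The share of mitochondrially encoded genes was 4.91% to 13.7% in outer hair cell IPs, 3.07% to 8.83% in supporting cell IPs and 20.5% to 28.6% in inputs.

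Without noise the subunits summed to 15200 ± 429 TPM in Prestin input (SD, n = 3) and 16540 ± 1089 TPM in Sox2 input (n = 2). Complex V had the largest sum in Prestin control inputs, 5111 TPM, ahead of complex IV with 4710, complex I with 3777, complex III with 1302 and complex II with 299 TPM. Atp5b, the catalytic beta subunit of ATP synthase, was the highest of complex V at 1197 TPM in Prestin and 1190 TPM in Sox2 control inputs. Cox4i1, the common isoform of complex IV subunit 4, led complex IV in Prestin control inputs at 1023 TPM. Uqcr10, a small subunit of complex III, averaged 385.5 TPM in Prestin and 406.3 TPM in Sox2 control inputs. Ndufb10, an accessory subunit of the membrane arm of complex I, was the highest of complex I at 586.6 TPM in Prestin and 457.4 TPM in Sox2 control inputs. Sdha, the flavoprotein of succinate dehydrogenase, led complex II at 122.6 TPM in Prestin and 111.5 TPM in Sox2 control inputs. In control inputs complexes I, II, III and V had the same highest gene in both strains, while Cox6c2 was the highest of complex IV in Sox2 inputs. At the low end stood Ndufb4 (3.498 TPM in Prestin and 2.20 TPM in Sox2 control inputs) and Atp5g2, a gene for the proton-carrying subunit c (1.054 TPM in Prestin and 1.16 TPM in Sox2 control inputs). Sdhc and Sdhb were the lowest of complex II, Sdhc at 35.6 TPM in Prestin and Sdhb at 46.4 TPM in Sox2 control inputs, and Uqcrb was the lowest of complex III in Prestin control inputs at 39.4 TPM. Cox8c, a testis isoform, was listed at 0 in all 32 libraries and Cox7b2 reached at most 0.109 TPM. Uqcrc1, a large subunit of complex III facing the matrix, was listed at 0 in all 14 Sox2 libraries, against 81.9 to 119 TPM in the Prestin IP and 82.2 to 111 TPM in the Prestin input, and it was not tested in the supporting cell IP. Among the 81 subunits of the difference between both pull-downs it enters with those zeros and was not called.

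Summed over the 83 genes, the outer hair cell IP groups were the lowest of the 12. They held 8683 ± 947 TPM without noise, 7801 ± 566 at 6 h and 8548 ± 864 at 24 h, against 15200 ± 429, 14080 ± 989 and 14470 ± 180 TPM in their inputs (n = 3 each). No outer hair cell IP overlapped its inputs. The supporting cell IP held 14750 ± 990 TPM without noise, 10930 ± 269 at 6 h and 12270 ± 1313 at 24 h, against 16540 ± 1089, 13760 ± 785 and 15750 ± 255 TPM in its inputs (n = 2, 2 and 3). In ascending order the supporting cell IP at 6 h and 24 h followed the outer hair cell IP, then came the Sox2 input at 6 h, the Prestin inputs at 6 h and 24 h, the supporting cell IP without noise and the remaining inputs. The outer hair cell IP groups lay within 1 SD of their neighbours in this order (the larger SD of both), as did the groups from the Sox2 input at 6 h to the Prestin input without noise, and the last pair, the Sox2 inputs at 24 h and without noise. The supporting cell IPs at 6 h and 24 h lay more than 1 SD from either neighbour. In bulk RNA, fewer cells of a type and less RNA per cell cannot be told apart.

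**Figure D1:**
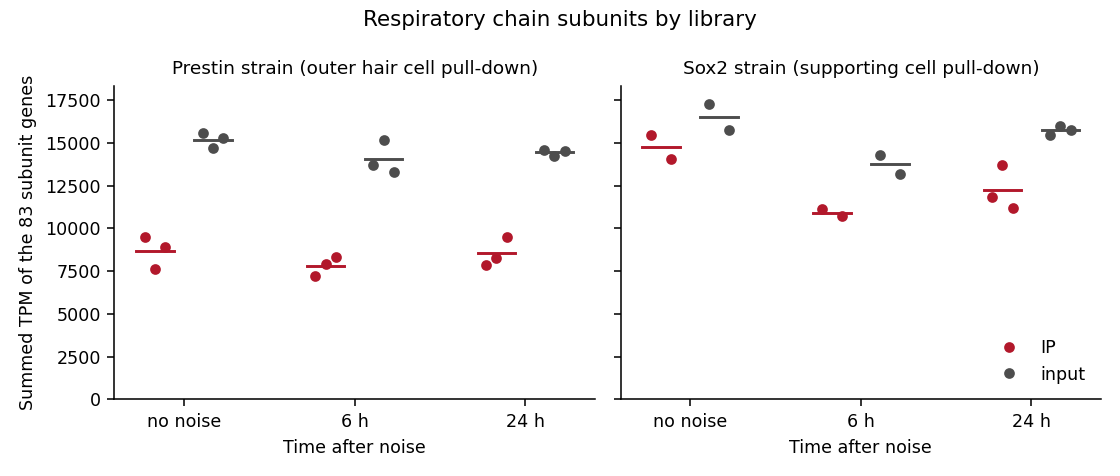
Summed TPM of the 83 subunit genes in each library (points) with group means (lines), for IP and input, by time after noise and strain. The outer hair cell IP lies between 7189 and 9516 TPM, below all Prestin inputs (13320 to 15570), while the supporting cell IP without noise (14050 and 15450) overlaps Sox2 inputs.

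Part of the Sox2 sums came from the pseudogene Cox6c2, which held 2172 TPM in Sox2 control inputs and 188 TPM in Prestin control inputs. Its parent Cox6c, a small subunit of complex IV, went the other way, with 46.7 TPM in Sox2 and 151 TPM in Prestin control inputs. The coding sequence of Cox6c and the whole Cox6c2 transcript (GENCODE M21, GRCm38) are shown because reads from one can be counted for the other: 224 of 231 bases are identical, and the 7 that differ are in capitals.
Cox6c (chromosome 15, 35925886 to 35938246, minus strand): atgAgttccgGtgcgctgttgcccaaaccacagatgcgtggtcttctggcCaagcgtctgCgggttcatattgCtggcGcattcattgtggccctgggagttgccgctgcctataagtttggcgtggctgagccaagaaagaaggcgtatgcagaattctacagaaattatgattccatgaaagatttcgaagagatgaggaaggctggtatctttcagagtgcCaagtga
Cox6c2 (chromosome 12, 56373593 to 56373823, minus strand): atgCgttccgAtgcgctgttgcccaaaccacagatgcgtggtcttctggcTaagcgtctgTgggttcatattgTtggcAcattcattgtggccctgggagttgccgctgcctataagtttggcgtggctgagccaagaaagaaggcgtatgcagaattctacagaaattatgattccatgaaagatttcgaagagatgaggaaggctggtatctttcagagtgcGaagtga
Without Cox6c2 the sums of the supporting cell IP were 13340 ± 695, 9908 ± 522 and 11040 ± 1001 TPM without noise, at 6 h and at 24 h, against 14370 ± 1028, 12170 ± 549 and 13730 ± 124 TPM in its inputs. The outer hair cell IP changed little without it, to 8588 ± 919, 7691 ± 533 and 8499 ± 844 TPM, against 15010 ± 452, 13890 ± 966 and 14300 ± 173 TPM in its inputs.

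Cox6c was not the only subunit with a near-identical copy elsewhere. Of the members, 16 share at least 15% of their 50-base stretches with another gene (a limit chosen after the values were seen). In this set the Sox2 control inputs lay below the Prestin control inputs with a median log2 ratio of -0.76, and 8 of 16 were lower by 1 or more, while the 65 other members had a median of -0.00 and 2 were lower by 1 or more. These 2 were Uqcrc1, with its zeros, and Ndufs6, whose share of 14.6% lies just under the limit and whose log2 ratio was -1.31. Among the 16 are Atp5g1, Atp5g2, Atp5h, Cox5b, Cox7c, Ndufb4, Ndufs3 and Ndufs5, whose levels, like those of Ndufs6, are therefore uncertain, above all between strains.

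IP was set against input to see which transcripts the pull-down holds relative to the whole cochlea. In the outer hair cell IP, 57 of the 81 subunits tested were lower than in the input, 9 were higher and 15 were not called. Over all genes 7.68% were lower and 68.5% higher. Their median log2 difference was -0.69 and that of all genes tested +0.82, and 79 of the 81 lay below the median gene. With the homogenate as a block, which pairs each IP with its own input, 56 were lower and 5 higher, and 5 were higher without the first Prestin input at 6 h or at 24 h. With median-of-ratios scaling, which puts the median gene at 0.05, 76 were lower and 1 higher, and over all genes 5456 were lower and 5649 higher (1333 lower and 11885 higher on the TPM scale). All 57 calls of lower subunits held with it, and 8 of the 9 called higher turned negative, all but Atp5g2. Homogenate by homogenate, 52 of the 83 members were lower in the IP in all 9 pairs and 2 were higher in all, against 4.49% and 52.3% of all genes.

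**Figure D2:**
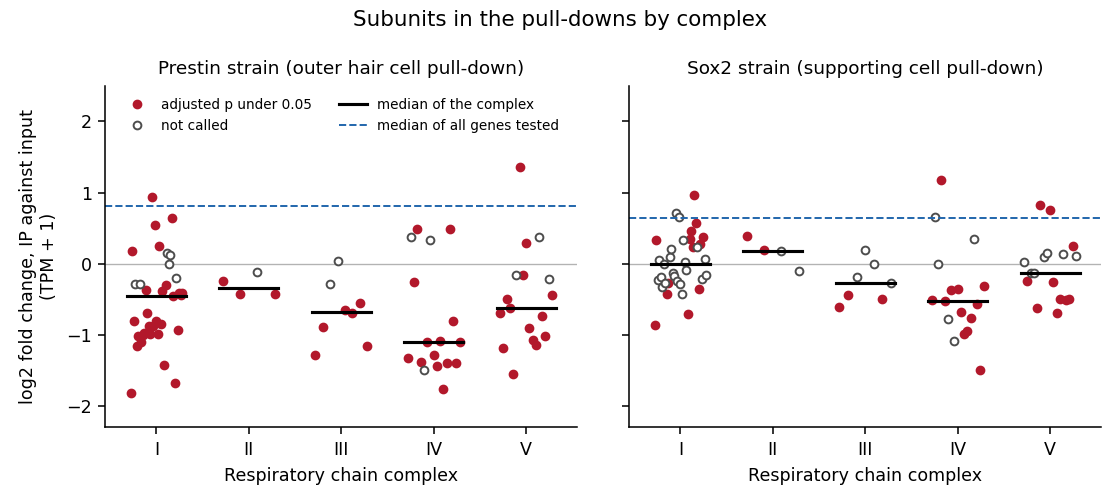
Log2 fold change of each tested subunit, IP against input, by respiratory chain complex for the outer hair cell (left) and supporting cell pull-down (right), filled where adjusted p is under 0.05. Solid lines mark each complex's median and the dashed line that of all genes tested, 0.82 and 0.65. In the outer hair cell IP every complex has a negative median, from -0.34 for complex II to -1.10 for complex IV.

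Ndufa1 and Cox7b, both on the X chromosome, show the pattern. Their coding sequences (GENCODE M21, GRCm38, start and stop codons in capitals), of 213 and 243 bases, are given to show how short these are.
Ndufa1 (37187588 to 37191163, minus strand): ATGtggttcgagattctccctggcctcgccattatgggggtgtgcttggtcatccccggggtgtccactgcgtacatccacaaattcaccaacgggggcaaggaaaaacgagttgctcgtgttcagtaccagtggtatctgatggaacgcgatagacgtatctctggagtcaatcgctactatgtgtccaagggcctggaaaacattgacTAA
Cox7b (106015700 to 106022450, plus strand): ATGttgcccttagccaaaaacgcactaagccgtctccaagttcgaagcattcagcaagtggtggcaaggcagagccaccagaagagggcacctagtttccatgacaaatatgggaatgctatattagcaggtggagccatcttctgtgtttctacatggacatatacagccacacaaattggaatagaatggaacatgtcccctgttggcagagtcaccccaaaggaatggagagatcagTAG
Ndufa1 (ENSMUSG00000016427), a membrane-bound accessory subunit needed to assemble complex I, has 3 exons and a transcript of 419 bases. In the outer hair cell IP it had 77.9, 55.6 and 53.7 TPM without noise, 53.4, 57.7 and 68.4 at 6 h and 71.3, 52.4 and 82.8 at 24 h, against 233, 222 and 222, 231, 247 and 212, and 228, 207 and 218 TPM in the inputs. Every IP lay below every input. The difference was -1.82 ± 0.09 (log2, SE, adjusted p = 3.03e-10).

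Cox7b (ENSMUSG00000031231), a small subunit of complex IV, has 3 exons and a transcript of 1001 bases. It had 72.3, 45.1 and 62.5 TPM in the outer hair cell IP without noise, 46.3, 52.8 and 57.8 at 6 h and 52.4, 46.7 and 60.1 at 24 h, against 166, 156 and 159, 128, 153 and 141, and 130, 139 and 145 TPM in the inputs. Again no IP reached an input, with a difference of -1.40 ± 0.09 (adjusted p = 1.61e-09).

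Complex IV was the lowest complex, with 12 of 17 tested subunits lower and 2 higher and a median of -1.10. Cox7a2, the common isoform of subunit 7a, had 47.5 to 102 TPM in the IP (median 73.5) and 240 to 280 TPM in the input (median 249). The ranges did not overlap, and it was lower by 1.76 (log2 -1.76 ± 0.10). Cox4i1 (-1.32), Cox6a1 (-1.39), Cox6b1 (-1.10) and Cox8a (-0.81), the common isoforms of their subunits, were all lower. The muscle isoforms Cox8b (-1.40 ± 0.07) and Cox7a1 (-1.09 ± 0.14) were lower too, whereas the muscle isoform Cox6a2 (-1.49 ± 0.67), the lung isoform Cox4i2 (0.38 ± 0.19) and the testis isoform Cox6b2 (0.33 ± 0.16) were not called. Cox6c2 was lower by 1.44 (log2 -1.44 ± 0.33), with 29.7 to 205 TPM in the IP and 144 to 220 TPM in the input, which overlap.

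The 2 complex IV members called higher were Cox5b, a zinc-binding subunit, and Cox7c, a small membrane subunit. Cox5b had 122, 93.9 and 133 TPM in the outer hair cell IP without noise, 87.1, 114 and 117 at 6 h and 70.9, 143 and 86.6 at 24 h, against 80.8, 73.3 and 84.3, 70.7, 79.7 and 74.7, and 61.7, 69.1 and 79.6 TPM in the inputs. The groups overlapped. Its difference was 0.49 ± 0.12 (adjusted p = 0.00217), and with median-of-ratios scaling it turned to -0.58. Cox7c was higher by 0.49 ± 0.20 (28.6 to 70.5 TPM in the IP and 28.9 to 56.0 TPM in the input), and turned to -0.56 with that scaling. Leaving out 1 library ended the call of Cox7c in 12 of 18 cases.

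Of complex I, 24 of 35 subunits were lower and 5 higher, with a median of -0.46. The 7 core subunits that carry electrons had a median of -0.21 with 3 lower, and the 28 accessory subunits had a median of -0.80 with 21 lower. Ndufs6, a zinc-binding accessory subunit, had 19.1 to 37.0 TPM in the IP (median 27.9) and 80.4 to 104 TPM in the input (median 90.6), a difference of -1.68 ± 0.12 with no overlap. Ndufb2, an accessory subunit of the membrane arm, had 10.2 to 24.9 TPM in the IP (median 16.4) and 6.01 to 10.2 TPM in the input (median 8.56), with overlap only at the edge. It was the largest rise among members of at least 5 TPM, 0.94 ± 0.11 (adjusted p = 1.76e-06), but this was close to the median gene, and median-of-ratios scaling put it at -0.052. Ndufs4, an accessory subunit whose loss causes mitochondrial disease, was higher by 0.65 ± 0.14 and Ndufb4 by 0.55 ± 0.21, and both turned negative with that scaling (-0.26 and -0.29).

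Complex II was the nearest to its input level: Sdhb (-0.43), Sdhd (-0.43) and Sdha (-0.25) were lower and Sdhc was not called (-0.12 ± 0.08). Sdha had 85.7 to 116 TPM in the outer hair cell IP and 103 to 126 TPM in the input, which overlap. Of complex III, 6 of 8 were lower (median -0.68), among them Uqcr10 (-1.28 ± 0.12), the Rieske iron-sulfur protein Uqcrfs1 (-0.70 ± 0.09) and the hinge protein Uqcrh (-0.55 ± 0.06). Uqcrc1 (0.04 ± 0.08) and Uqcrb (-0.28 ± 0.16) were not called.

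Of complex V, 12 of 17 were lower and 2 higher (median -0.62). All 5 subunits of the catalytic F1 head and its stalk were lower, led by Atp5e, the epsilon subunit, with 112 to 265 TPM in the IP (median 146) and 425 to 504 TPM in the input (median 454), a difference of -1.55 ± 0.12. Atp5b had 420 to 754 TPM in the IP (median 499) and 1119 to 1298 TPM in the input (median 1195), a difference of -1.18 ± 0.10. Neither gene's ranges overlapped. The largest rise on the log2 scale, 1.36 ± 0.31, was that of Atp5g2, which stood at 0.112 to 15.3 TPM in the IP and 0.106 to 1.8 TPM in the input. All of its 50-base stretches occur in another gene.

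**Figure D3:**
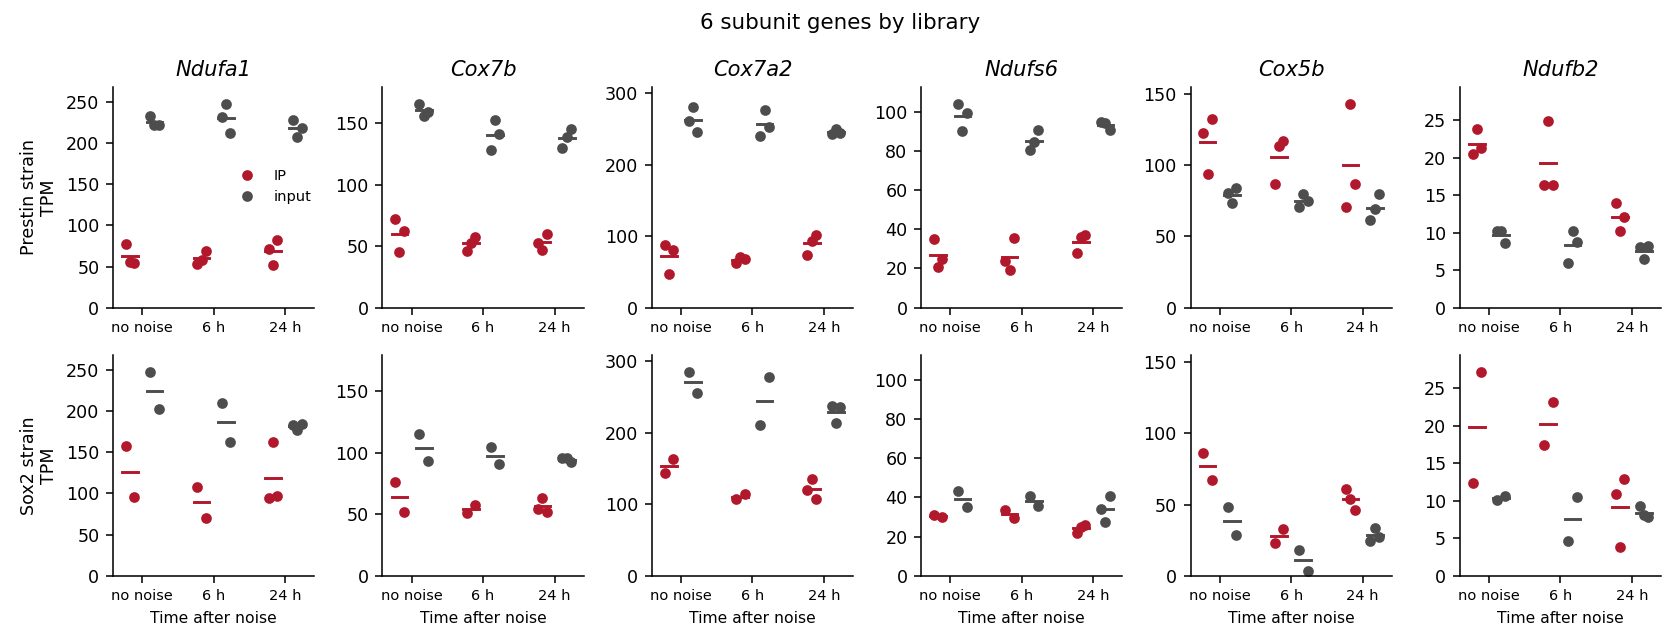
TPM of Ndufa1, Cox7b, Cox7a2, Ndufs6, Cox5b and Ndufb2 in every library (points) with group means (lines), for IP and input, by time after noise. The top panels are the Prestin strain and the bottom panels the Sox2 strain. Ndufa1 in the outer hair cell IP lies between 52.4 and 82.8 TPM and in its input between 207 and 247 TPM.

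Subunits lay closer to the input in the supporting cell IP. Of 80 tested, 26 were lower (2.72% of all genes), 14 higher (55.2% of all genes) and 40 not called. Their median was -0.15 and that of all genes tested +0.65. With median-of-ratios scaling, which puts the median gene at 0.02, 66 were lower and 0 higher, and over all genes 3460 were lower and 3440 higher (505 lower and 10241 higher on the TPM scale). With the control libraries alone (2 against 2), limma called 2 lower and 2 higher. In all 7 homogenates 21 members were lower in the IP and 9 higher, against 1.48% and 44.7% of all genes.

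Complex IV was again the lowest, with 11 of 17 lower and 1 higher and a median of -0.52, and complex III had 3 of 7 lower and 0 higher (-0.28). Complex I stood at a median of -0.00, with 8 higher and 5 lower of 35. Of its 7 electron-carrying core subunits 5 were higher and 0 lower (median 0.28, below the 0.65 of all genes, of which 55.2% were higher), among them Ndufs1 (0.46 ± 0.07), the flavin-binding Ndufv1 (0.37 ± 0.09) and Ndufs7, next to the quinone site (0.28 ± 0.08). Of complex II, Sdha (0.39 ± 0.06) and the iron-sulfur subunit Sdhb (0.19 ± 0.07) were higher. With median-of-ratios scaling these calls turned: 0 of the 7 core subunits of complex I were higher and 6 lower, all 4 subunits of complex II were lower, and Ndufs1 (-0.43), Ndufv1 (-0.54), Ndufs7 (-0.63), Sdha (-0.52) and Sdhb (-0.71) were all called lower. Complex V had 3 higher and 7 lower of 17 (median -0.13).

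Ndufa1 had 158 and 95.1 TPM in the supporting cell IP without noise, 108 and 70.3 at 6 h and 95.0, 163 and 96.8 at 24 h, against 248 and 202, 210 and 162, and 183, 177 and 185 TPM in the inputs. The IP was the lower of each pair of groups, with 163 TPM in 1 IP at 24 h just above the lowest input, 162 TPM. The difference was -0.87 ± 0.17 (adjusted p = 0.00163). Cox7b had 50.5 to 76.1 TPM in the IP (median 54.3) and 90.6 to 115 TPM in the input (median 95.3), without overlap, and a difference of -0.77 ± 0.10 (adjusted p = 0.000104). Cox7a2 differed by -0.95 ± 0.09, with 107 to 164 TPM in the IP and 211 to 285 TPM in the input. The muscle isoforms Cox8b and Cox7a1 were the lowest of those called, Cox8b at -1.50 ± 0.18 with 51.7 to 145 TPM in the IP and 218 to 424 TPM in the input, and Cox7a1 at -0.98 ± 0.20. The common isoforms were also lower, Cox4i1 by 0.51 (log2 -0.51), Cox6a1 (-0.52), Cox6b1 (-0.37) and Cox8a (-0.57), and the isoforms Cox6b2 (-1.09 ± 0.83), Cox6a2 (-0.78 ± 1.26) and Cox4i2 (0.66 ± 0.39) were not called.

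Those higher in the supporting cell IP were led by members with copies. Cox5b had 86.0 and 67.4 TPM in the IP without noise, 23.0 and 32.9 at 6 h and 60.9, 53.7 and 46.1 at 24 h, against 48.5 and 28.8, 18.2 and 3.36, and 24.7, 33.8 and 27.4 TPM in the inputs. At each time the IP lay above the input, although the groups overlap across times. Its difference was 1.18 ± 0.30 (adjusted p = 0.00651). Ndufs3, a core subunit of the peripheral arm of complex I, was higher by 0.97 ± 0.22 (12.5 to 29.9 TPM in the IP and 5.23 to 14.5 TPM in the input). Atp5g1, another gene for subunit c (0.83 ± 0.23), Atp5h, of the peripheral stalk (0.76 ± 0.25), and Ndufs4 (0.57 ± 0.12) were higher as well, and each of these 3 turned negative with median-of-ratios scaling (-0.019, -0.12 and -0.20). Of the 14 called higher, 12 turned with it, and the other two, Cox5b (0.30) and Ndufs3 (0.12), were no longer called.

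The difference between both enrichments, outer hair cell IP over input minus supporting cell IP over input, was tested over all 32 libraries. Of 81 subunits, 48 were lower (7.62% of all genes) and 0 higher (14.0% of all genes) in limma. An unadjusted p under 0.05 was found for 58. Such counts, here and below, stand without the share of all genes at that unadjusted threshold. The median was -0.57 and that of all genes tested +0.19, where median-of-ratios scaling turns the split over all genes to 1835 lower and 1477 higher (1498 and 2751 on the TPM scale). Lower counts came from each complex: 21 of 35 in complex I, 4 of 4 in complex II, 4 of 8 in complex III, 7 of 17 in complex IV and 12 of 17 in complex V. Of the 17 core subunits of complexes I, II, III and V, 15 were lower. The 5 tested tissue isoforms were not called and had a median of -0.11. With the control libraries alone, 1 subunit was lower. Driver, strain and listed genes differ together between both pull-downs and cannot be told apart.

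Ndufs6 had the largest difference, -1.32 ± 0.16 (adjusted p = 7.52e-06). It stood at 19.1 to 37.0 TPM in the outer hair cell IP and 80.4 to 104 TPM in its input, against 21.9 to 33.5 TPM in the supporting cell IP and 27.7 to 43.1 TPM in its input, so that the inputs of the strains differed while the IPs overlapped. Its pseudogene Ndufs6b is among its copies, and their part in this result was not tested. Atp5b differed by -0.95 ± 0.13 (adjusted p = 2.5e-05), and here the inputs overlapped, at 1119 to 1298 TPM (Prestin) and 1176 to 1306 TPM (Sox2), while the outer hair cell IP held 420 to 754 TPM and the supporting cell IP 870 to 1199 TPM. Ndufa13, an accessory subunit of the membrane arm, differed by -0.98 ± 0.16, Atp5g1 by -0.99 ± 0.26, Ndufa1 by -0.95 ± 0.19 (adjusted p = 0.00115) and Cox7b by -0.64 ± 0.13 (adjusted p = 0.00179). Control inputs averaged 153 TPM in Prestin and 99.3 TPM in Sox2 for Ndufa13, 25.8 and 9.92 TPM for Atp5g1 and 160 and 104 TPM for Cox7b. The IPs of these genes overlapped between strains. For Ndufa1 the control inputs were alike, at 226 and 225 TPM. Among the 16 members with copies 5 were lower, and among the 65 others, Ndufs6 included, 43 were.

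Length and level in the IP moved together. The subunits are short, with a median transcript of 693.5 bases in the outer hair cell comparison, against 2754 bases over all tested protein-coding genes. Across genes, which are not independent replicates, length and the log2 difference of the outer hair cell IP correlated with Spearman's rho of 0.31 over 80 subunits and 0.36 over 13515 protein-coding genes. These were 0.49 over 79 and 0.32 over 13753 in the supporting cell IP. Compared within a length class, the subunits stood below other protein-coding genes. Under 600 bases the medians in the outer hair cell IP were -0.97 for 31 subunits and -0.00 for 278 other genes, from 600 to under 1000 bases -0.84 (25) and 0.18 (820), and from 1000 to under 2000 bases -0.44 (19) and 0.57 (3153); the 5 remaining subunits are longer. Medians in the supporting cell IP were, for subunits and other genes, -0.36 and 0.00 under 600 bases, -0.13 and 0.25 in the next class and 0.06 and 0.54 in the third. For the difference between both enrichments, length and value correlated with rho of -0.05 over 80 subunits and 0.17 over 14443 protein-coding genes, and the medians of the subunits in those 3 classes were -0.57, -0.64 and -0.55, against 0.02, -0.02 and 0.07 for other genes.

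**Figure D4:**
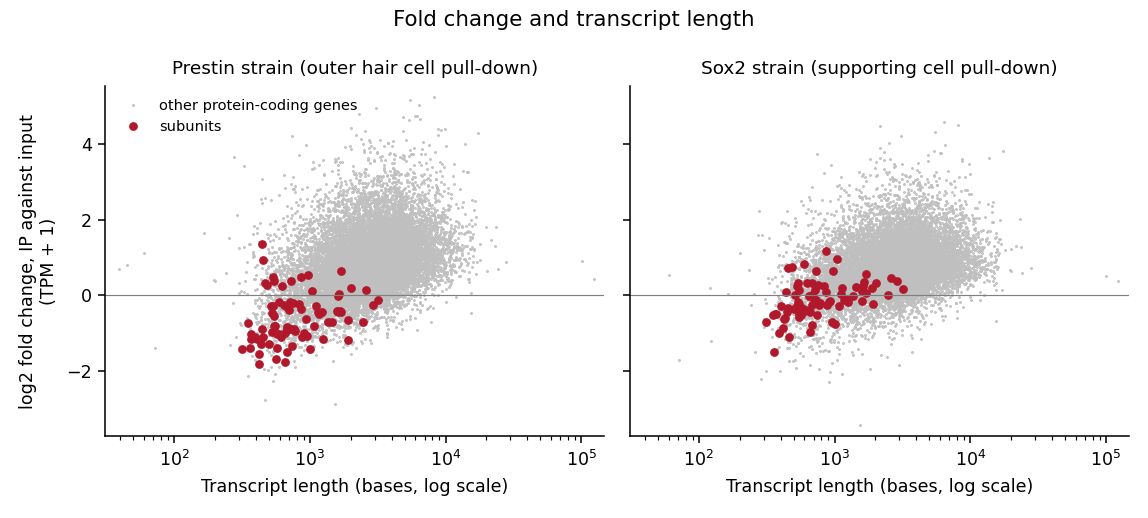
Log2 fold change, IP against input, of each protein-coding gene against its transcript length (log scale), subunits in red and other genes in grey, for the outer hair cell (left) and supporting cell pull-down (right). Longer transcripts stand higher in both, and the subunits, with a median of 693.5 bases (left), lie at the short end and below other genes of their length.

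Marker lists of other cell types differed from the inputs in both directions. Pericyte and smooth muscle markers summed to 121 to 209 TPM in Prestin pull-downs and 79.1 to 103 TPM in their inputs. Schwann and satellite glia markers summed to 1398 to 2407 TPM in Prestin pull-downs and 718 to 1298 TPM in their inputs. Lower calls below stand beside 7.68% of all genes for outer hair cells and 2.72% for supporting cells. Markers of stria vascularis marginal cells had 4 of 7 lower and 1 higher in the outer hair cell IP (median -0.31) and 6 of 7 lower in the supporting cell IP (-0.54), with sums of 317 to 578 TPM in the outer hair cell IP and 403 to 599 TPM in its input, and 251 to 465 TPM in the supporting cell IP and 483 to 557 TPM in its input. Of 6 melanocyte markers, outer hair cell IPs had 3 lower and supporting cell IPs 4, and of 7 macrophage markers 3 were lower in each. Skeletal muscle markers summed to 11.9 to 333 TPM in the outer hair cell IP and 17.9 to 342 TPM in its input, and to 9.01 to 645 TPM in the supporting cell IP and 17.03 to 2333 TPM in its input. Cox6a2 reached 141 TPM in the Sox2 inputs and lay between 0 and 37.9 TPM in the supporting cell IP. The part of these cells in the values of the subunits was not tested.

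Other mitochondrial genes were counted in the same way, beside the 68.5% of all genes that were higher in the outer hair cell IP (median 0.82) and the 55.2% in the supporting cell IP (median 0.65). The 11 mitochondrially encoded subunits tested, which are made inside the organelle, had 9 lower in the outer hair cell IP (median -1.01), with mt-Co1 at -2.88 ± 0.18, and 7 of 8 were lower in the supporting cell IP (-1.74). Of 39 respiratory chain assembly factors 24 (61.5%) were higher and 6 lower in the outer hair cell IP (median 0.42), and 23 (59.0%) were higher and 1 lower in the supporting cell IP (0.41). Their shares were near those of all genes and their medians below them, and with median-of-ratios scaling 6 were higher and 24 lower in the outer hair cell IP, and 5 higher and 23 lower in the supporting cell IP. Among them the copper chaperones Cox17 (2.45 ± 0.16) and Cox11 (1.61 ± 0.09) were higher in the outer hair cell IP with both scalings, Ndufaf7 (1.41 ± 0.09) was so in the supporting cell IP, and the assembly factor Cox19 (0.87 ± 0.05) turned to -0.17 in the outer hair cell IP.

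Regulators of mitochondrial biogenesis had 16 of 17 higher in the outer hair cell IP (median 1.18), with the coactivator Ppargc1a at 1.48 ± 0.07, and 15 of 17 higher in the supporting cell IP (1.01). Their medians stayed positive with median-of-ratios scaling, at 0.31 in the outer hair cell IP (9 higher and 4 lower of 16) and 0.13 in the supporting cell IP (6 higher and 2 lower of 18). Mitochondrial ribosomal proteins had 34 higher and 17 lower of 71 (0.18) in the outer hair cell IP and 35 higher and 0 lower of 72 (0.40) in the supporting cell IP. Genes of the citrate cycle had 6 higher and 7 lower of 17 (-0.10) in the outer hair cell IP and 12 higher and 0 lower of 18 (0.36) in the supporting cell IP. Fatty acid oxidation had 7 higher and 4 lower of 12 in the outer hair cell IP and 11 higher in the supporting cell IP, while glycolysis had 6 higher and 6 lower of 20 (-0.02) in outer hair cell and 11 higher and 1 lower (0.32) in supporting cell pull-downs. Import genes had 12 higher and 4 lower of 19 in the outer hair cell IP, and 9 higher and 1 lower of 18 in the supporting cell IP. Cytosolic ribosomal proteins, also short transcripts, had 36 higher and 23 lower of 76 (0.18) in the outer hair cell IP and 13 higher and 17 lower of 76 (0.00) in the supporting cell IP. With median-of-ratios scaling the medians of these 6 lists were all negative in both pull-downs, from -1.07 for glycolysis to -0.43 for fatty acid oxidation in the outer hair cell IP and from -0.87 for cytosolic ribosomal proteins to -0.053 for fatty acid oxidation in the supporting cell IP.

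The promoters of the subunits were read from RefSeq (GRCm38.p6), from 250 bases before to 50 after the start, for the 67 members that matched. The motif of NRF1, an activator of many respiratory chain genes (GCGC, any base, then TGCGC, either strand), was in 17 of them (25.4%) and in 5.19% of 27025 promoters of the same length (7.17% of 17492 coding genes). That of the oestrogen-related receptors (TCAAGGTCA, either strand) was in 2.99% of the members and 0.466% of all promoters, that of YY1 (AAGATGG followed by CGGC) in 5.97% and 0.755%, and that of ETS factors (ACCGGAAGT) in 1.49% and 1.21%. The 2 members with both the NRF1 and the receptor motif are printed, with the motifs in capitals: Atp5g3, the third gene of subunit c, on the minus strand at chr2:73911277-73911576, and Sdhd, a membrane anchor of complex II, on the minus strand at chr9:50603800-50604099.
Atp5g3 promoter: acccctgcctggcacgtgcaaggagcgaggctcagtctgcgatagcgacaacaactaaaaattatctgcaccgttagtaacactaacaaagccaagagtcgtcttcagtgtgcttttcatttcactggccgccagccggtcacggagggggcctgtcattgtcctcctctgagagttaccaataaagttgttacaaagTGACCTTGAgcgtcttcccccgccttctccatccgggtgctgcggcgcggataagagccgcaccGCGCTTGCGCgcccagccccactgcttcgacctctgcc
Sdhd promoter: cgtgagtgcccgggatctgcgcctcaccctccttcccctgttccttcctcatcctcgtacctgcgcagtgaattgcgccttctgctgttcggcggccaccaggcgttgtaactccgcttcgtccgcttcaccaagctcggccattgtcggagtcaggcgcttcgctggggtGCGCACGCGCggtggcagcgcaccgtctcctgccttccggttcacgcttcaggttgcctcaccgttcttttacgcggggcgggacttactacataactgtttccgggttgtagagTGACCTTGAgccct
Sdhd stood at -0.43 ± 0.07 and Atp5g3 at -0.16 ± 0.07 against input in the Prestin strain, both lower, and at -0.10 ± 0.06 and 0.16 ± 0.08 in the Sox2 strain, where neither was called. A motif match describes the letters and is not a bound site.

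The comparison of noise with no noise asks how each compartment responded. Within a pull-down, the fits at 6 h recovered hardly any of the changes put into simulated data, where few genes changed. Adjustment over all genes is stricter when few genes change. The outer hair cell fit itself called 4.77% of all genes lower, so the simulation may understate what that fit can call. A count of 0 within a pull-down still does not show that levels stayed the same. At 6 h, limma called in the outer hair cell IP 0 of 81 subunits higher (0.856% of all genes) and 0 lower (4.77%), with 10 at an unadjusted p under 0.05, and their median was -0.20, beside -0.17 over all genes. When inputs entered the same fit, 12 were lower. That fit takes 1 error per gene from IPs and inputs together, and its share over all genes is not given. The smallest p belonged to Ndufs5, an accessory subunit of complex I (-0.81 ± 0.20, adjusted p = 0.0571), Ndufa7 (-0.64 ± 0.17, adjusted p = 0.0641) and Cox6b2 (-0.92 ± 0.30, adjusted p = 0.104). Outer hair cell markers summed to 834, 514.5 and 609.5 TPM at 6 h, against 2229, 826 and 1244 TPM without noise (0 of 10 called, median -0.72). The mitochondrially encoded share was 10.6% to 13.7% at 6 h, against 4.91% to 8.40% without noise, with no overlap. The part of either in the values of the subunits was not tested.

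At 24 h in the outer hair cell IP, 1 subunit was lower (5.14% of all genes) and 0 higher (1.10%), with medians of -0.07 for the subunits and -0.15 for all genes. This was Cox8b, at 119, 120 and 132 TPM without noise, 139, 110 and 129 TPM at 6 h and 77.7, 69.9 and 91.3 TPM at 24 h. The 24 h libraries lay below the others, and it fell by 0.64 at 24 h against no noise (log2 -0.64 ± 0.15, adjusted p = 0.0471). Leaving out 1 library ended this call in 8 of 9 cases, all but the second IP at 6 h. At 24 h outer hair cell markers summed to 785 to 905 TPM, against 826 to 2229 TPM without noise (0 of 10 called, median -0.29), and macrophage markers to 220 to 343 TPM, against 87.5 to 136 TPM without noise (1 of 7 higher, median 1.01). Skeletal muscle markers summed to 11.9 to 33.9 TPM at 24 h and 23.0 to 66.3 TPM without noise (0 of 10 called, median -0.73). The part of these cells was not tested. At 24 h against 6 h in these pull-downs limma called 0 higher (0.0599%) and 0 lower (0.0419%), with 2 at an unadjusted p under 0.05.

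In the supporting cell IP at 6 h limma called 0 of 80 higher (0.216% of all genes) and 0 lower (0.478%). An unadjusted p under 0.05 was found for 31, with no share of all genes at that threshold to set beside it. The median of the subunits, -0.49, lay below that of all genes, -0.07. Uqcr10 averaged 152 TPM at 6 h, at 180 and 124 TPM, against 340 TPM without noise, at 359 and 321 TPM, which did not overlap (-1.18 ± 0.20, adjusted p = 0.0747). Cox5b was at -1.44 ± 0.25 (adjusted p = 0.0747, 27.9 TPM at 6 h against 76.7 TPM without noise) and Ndufs7 at -0.88 ± 0.16 (adjusted p = 0.0786, 73.7 TPM at 6 h against 137 TPM without noise). When inputs entered the same fit, 21 were lower. Its error is again taken from IPs and inputs together, and the share over all genes is not given. The 2 libraries at 6 h also had fewer genes above 0 (16813 and 16537, against 19230 and 17395 without noise) and more mitochondrially encoded RNA (8.83% and 7.21%, against 3.07% and 4.35%), whose part was not tested. At 24 h 0 were higher (0.108%) and 0 lower (0.0796%), with 13 at an unadjusted p under 0.05 and medians of -0.29 for the subunits and 0.14 for all genes. Ndufa8 (-0.60 ± 0.15, adjusted p = 0.247), Sdhb (-0.55 ± 0.14) and Atp5e (-0.76 ± 0.21) had the smallest p. At 24 h against 6 h 0 were higher (0.438%) and 0 lower (0.0683%), with 12 at an unadjusted p under 0.05, the smallest that of Ndufs5 (2.61 ± 0.46, adjusted p = 0.11), which averaged 7.53 TPM at 24 h and 0.356 TPM at 6 h.

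The whole cochlea inputs of both strains together showed a fall at 6 h. Of 80 subunits, 14 were lower (4.71% of all genes) and 0 higher (3.83%), 44 had an unadjusted p under 0.05, and the medians were -0.19 for the subunits and -0.09 for all genes. Complex I gave 7 (Ndufa5, Ndufa7, Ndufa10, Ndufa11, Ndufb7, Ndufc1 and Ndufc2), complex II 3 (Sdhb, Sdhc and Sdhd), complex III Uqcr10, complex IV Cox4i2 and Cox8b, and complex V Atp5e. Ndufa5, an accessory subunit of the peripheral arm, had 45.7, 50.9 and 42.5 TPM at 6 h, against 67.9, 54.97 and 63.5 TPM without noise, in the Prestin inputs, and 47.5 and 37.0 TPM, against 58.3 and 53.0 TPM, in the Sox2 inputs. Within each strain the groups did not overlap, and it fell by 0.41 (log2 -0.41 ± 0.08, adjusted p = 0.00774), with -0.41 in Prestin and -0.40 in Sox2 inputs alone. Ndufa10 and Ndufc1 both stood at -0.31, Uqcr10 at -0.39 ± 0.10 and Cox8b at -0.49 ± 0.14. At 6 h 3 of 5 erythroid markers were lower in the inputs too (median -0.85), and the mitochondrially encoded share was 23.1% to 28.6% at 6 h and 20.5% to 25.1% without noise, whose part was not tested beyond the rescaling given next. Neither strain alone gave a call, with medians of -0.16 for the subunits and -0.04 for all genes in Prestin inputs and -0.31 and -0.14 in Sox2 inputs. The count was 2 with the replicate number as a block, 6 with median-of-ratios scaling and 8 when shares were taken without mitochondrially encoded genes, Malat1 and Mir6236. Without the first Sox2 control input it was 5, without the third Prestin control input or the first Prestin input at 6 h it was 9, and without the second Prestin input at 6 h it was 25.

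At 24 h 1 subunit was lower in the inputs (0.662% of all genes) and 0 higher (3.78%), again Cox8b. It had 376, 349 and 337 TPM without noise, 329, 263 and 259 TPM at 6 h and 222, 238 and 227 TPM at 24 h in the Prestin inputs, where the 24 h values were the lowest. The Sox2 inputs had 424 and 320 TPM without noise, 218 and 222 TPM at 6 h and 321, 314 and 222 TPM at 24 h, where groups at 24 h and without noise overlapped. Both Sox2 inputs above 300 TPM at 24 h had skeletal muscle markers summing to 1645 and 2333 TPM, against 38.7 TPM in the third, and the Prestin input with 329 TPM at 6 h had 342 TPM of them, against 25.15 and 27.5 TPM in the others of that group. The inputs without noise had Cox8b at 320 to 424 TPM. Their muscle markers summed to 93.8, 64.0 and 27.9 TPM in Prestin and 53.9 and 36.8 TPM in Sox2. Of the 8 muscle markers tested in the inputs 0 were called at 24 h against no noise (median 1.04). The part of muscle in the values of Cox8b was not tested. Its fall was 0.50 (log2 -0.50 ± 0.13, adjusted p = 0.0474), and leaving out 1 library ended the call in 10 of 16 cases. Between 6 h and 24 h, 16 rose (12.6% of all genes) and 0 fell (3.48%), among them Ndufa3 (0.51 ± 0.15), Ndufc1 (0.36 ± 0.07), Ndufb8 (0.34 ± 0.08), the flavin-binding Ndufv1 (0.32 ± 0.10) and Ndufc2 (0.31 ± 0.05). Of 7 macrophage markers 6 rose as well (median 0.93), whose part was not tested. The rises made up 20.0% of the subunits tested. Their count was 5 with median-of-ratios scaling, 9 when shares were taken without mitochondrially encoded genes, Malat1 and Mir6236, 1 with the replicate number as a block and 1 each in the Prestin and the Sox2 inputs alone. It was 8 without the third Sox2 input at 24 h or the Sox2 input at 6 h labelled replicate 4, 10 without either other Sox2 input at 24 h, and 25 without the second Prestin input at 6 h.

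**Figure D5:**
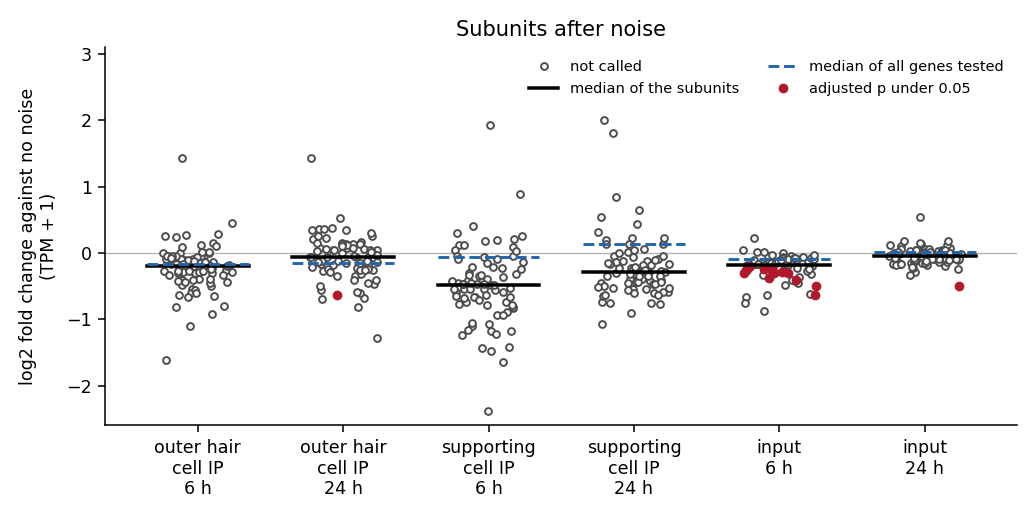
Log2 fold change after noise against no noise of each tested subunit in the outer hair cell IP, supporting cell IP and inputs at 6 h and 24 h, filled where adjusted p is under 0.05. Solid lines are medians of the subunits and dashed lines those of all genes tested. The supporting cell IP at 6 h has the lowest median, -0.49, with 0 called, and the inputs at 6 h have 14 called.

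Other mitochondrial genes of the inputs were counted at 6 h beside 4.71% of all genes lower and 3.83% higher. Of 37 assembly factors 7 fell, with Ndufaf7 at -0.71 ± 0.09, as did 9 of 70 mitochondrial ribosomal proteins and 3 of 12 genes of fatty acid oxidation. Of 9 mitochondrially encoded subunits 3 rose, among them mt-Nd2 (0.31 ± 0.07). Counts of the other lists and with other settings are not given here. In both pull-downs at 6 h the 7 mitochondrially encoded subunits tested had positive medians, 1.12 (outer hair cells) and 1.29 (supporting cells), with 0 called in limma.

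Whether an IP responded differently from its own input was tested as the difference of both responses. limma called 0 subunits in any of the 4 tests. At an adjusted p, 2.27% of all genes were lower and 0.150% higher for outer hair cells at 6 h. These shares were 0.962% and 0.0806% at 24 h. For supporting cells they were 0.140% and 0.129% at 6 h, and 0.0323% and 0.0162% at 24 h. An unadjusted p under 0.05 was found for 5 of 81 subunits for outer hair cells at 6 h. Among them was Atp5h at -0.87 ± 0.30 (adjusted p = 0.131). At 24 h it was found for 1, Uqcrfs1 at 0.46 ± 0.21 (adjusted p = 0.284). For supporting cells it was 9 of 80 at 6 h, with Ndufb4 at 2.96 ± 0.82 (adjusted p = 0.232). At 24 h it was 8, with Ndufa8 at -0.66 ± 0.16 (adjusted p = 0.455). The share of all genes at that unadjusted threshold is not given, so these counts cannot show an excess over all genes.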

How the data were processed

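The authors deposited TPM per gene and library, scaled to one shared total. Per the submitters' processing notes, TopHat and GRCm38 were used. Which tool counted reads, the annotation and the strand setting: not given in the sources used here. Libraries were made with a directional kit per the labels' protocols. TPM keeps no depth, so no counting interval is given.

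Genes were tested if they reached 1 TPM in a number of libraries equal to the smallest group's (3 for Prestin, 2 for Sox2, 5 for inputs), as log2(TPM + 1), which understates the change of low genes. limma 3.58.1 in R 4.3.3 (lmFit, eBayes with trend) was used with Benjamini-Hochberg adjustment at 0.05. IP was set against input as the mean over the 3 conditions, and inputs were fitted over both strains with strain as a covariate. The fits were tested on simulated data in which 100 genes changed by 1 and 100 by 0.5 on the log2 scale. Most changes of 1 on the log2 scale were recovered for IP against input and within the inputs, and hardly any for noise within a pull-down (6 h only). Few genes changed in these simulations, so recovery may be understated for fits that called many genes. Of changes of 0.5, 55% were recovered for the outer hair cell IP against input and 20% for the supporting cell IP against input. For the inputs at 6 h it was 54%, so smaller differences that were not called may have been missed. Each IP pairs with the input of its homogenate by design. Deviations of both from their groups correlated weakly (r of 0.0209 to 0.273 across genes). All 16 IPs correlated best with their own input. Groups of 2 give mirror images, so both their homogenates give the same check.

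Named genes were Ndufa1, Cox7b, each complex's highest and lowest in control inputs, the complex IV isoform pairs, up to 5 rises and 5 falls per comparison of at least 5 TPM (or the 3 smallest p), and up to 3 per list. Atp5g2 and other genes were added after their values were seen. Members and lists were chosen with earlier results of these data known. Of those genes and of the lists fixed, not all are printed. Copies are shared 50-base stretches of GENCODE M21 transcripts. Scripts used python 3.11.15, pandas 2.3.3, numpy 2.4.6, scipy 1.17.1 and matplotlib 3.10.9.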

Additional observations from a re-analysis of the deposited data

Results flagged for a closer look

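The enrichment of 48 subunits differed between the pull-downs, lower in the outer hair cell IP than in the supporting cell IP by the test of the difference itself (limma, 32 libraries). Those named were Ndufs6 (-1.32), Atp5g1 (-0.99), Ndufa13 (-0.98), Ndufa1 (-0.95), Atp5b (-0.95) and Cox7b (-0.64). The cells, the strain and the gene lists of the files differ together between both pull-downs and cannot be told apart. For Atp5g1, Ndufs6, Ndufa13 and Cox7b the inputs of the strains also differed (21.2 to 34.5 TPM in Prestin and 7.49 to 14.1 TPM in Sox2 inputs for Atp5g1). Control inputs of Ndufa13 averaged 153 TPM in Prestin and 99.3 TPM in Sox2, and those of Cox7b 160 and 104 TPM, while the IPs of both genes overlapped between strains.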

How the results depend on the processing

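Of the comparison counts and medians, 250 stayed within the limits used (a count within 1.5 times, a median within the spread) under settings other than leaving out a library, and 47 moved. The causes were not tested, except that settings with fewer libraries hold fewer samples. Among the counts are those of 0, as for most noise tests within a pull-down, which could only rise. Depth is unknown, which limits low members such as Atp5g2 and Ndufb4. In the outer hair cell IP against input, 1 subunit was higher with median-of-ratios scaling, 4 when shares left out mitochondrially encoded genes, Malat1 and Mir6236, 5 with the replicate block (here the homogenate) and 5 with the control libraries alone, and 5 to 10 with 1 library left out. The median of the subunits minus that of all genes was -1.76 with a pseudocount of 0.1, -1.10 with no filter on low values and -1.77 with median-of-ratios scaling. In the supporting cell IP against input 0 were higher and 66 lower with median-of-ratios scaling, 2 and 47 with the rescaled shares and 2 and 2 with the control libraries alone, and the same difference of medians was -1.002 with the smaller pseudocount, -0.53 with no filter and -1.07 with median-of-ratios scaling. For the difference between both enrichments, 1 was higher without the 6 h libraries (a setting added after seeing the data), 1 was lower with the control libraries alone, where the medians differed by -0.97, and 0 to 1 were higher with 1 library left out.

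After noise, a joint fit with the inputs called 12 lower in outer hair cells at 6 h. It called 2 higher and 4 lower there at 24 h and 1 lower at 24 h against 6 h. In the supporting cell IP it called 21 lower at 6 h, 4 lower at 24 h and 1 higher at 24 h against 6 h. The joint fit takes 1 error per gene from IPs and inputs together, and its shares over all genes are not given. The outer hair cell call at 24 h was 0 with the smaller pseudocount, with no filter, with median-of-ratios scaling and with the replicate block, and 0 to 2 with 1 library left out (0 to 1 at 6 h). In the inputs at 6 h, 6 were lower with median-of-ratios scaling, 8 with the rescaled shares, 2 with the replicate block and 0 in the Prestin and 0 in the Sox2 inputs alone, and 5 to 25 with 1 library left out. At 24 h 0 were lower with no filter, with the replicate block and with Sox2 inputs alone, 3 with the rescaled shares, 2 without the Sox2 6 h libraries (added after seeing the data) and 0 to 2 with 1 library left out. At 24 h against 6 h, 5 rose and 1 fell with median-of-ratios scaling, 9 and 2 with the rescaled shares, 1 rose with the replicate block and 1 each in the Prestin and the Sox2 inputs alone, and 8 to 25 rose and 0 to 1 fell with 1 library left out. For IP minus input responses at 6 h, leaving out 1 library gave 0 to 2 lower in outer hair cells, and 0 to 1 higher and 0 to 1 lower in supporting cells. Between Prestin libraries of the same noise replicate number, deviations correlated with r of -0.098 to 0.1. This range overlaps the r between IPs and their own inputs (0.0209 to 0.273). These r cannot tell whether libraries of the same number share more than the number.

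Called members named here that turned with median-of-ratios scaling were Ndufb2 (-0.052), Ndufs4 (-0.26), Ndufb4 (-0.29), Cox7c (-0.56) and Cox5b (-0.58) in the outer hair cell IP and Atp5g1 (-0.019), Atp5h (-0.12), Ndufs4 (-0.20), Ndufs1 (-0.43), Sdha (-0.52), Ndufv1 (-0.54), Ndufs7 (-0.63) and Sdhb (-0.71) in the supporting cell IP.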
